A study of Rattus norvegicus with 2 samples.

Results

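The miRNAs described here are non-canonical miRNAs, made without the usual cut by the enzyme Drosha, on high-density lipoprotein (HDL). They were taken by name from a list of 9: the capped miR-320-3p and miR-484, the mirtrons miR-1224 and miR-877, and the snoRNA-derived arms miR-664-1-5p, miR-664-2-5p, miR-664-3p, miR-1839-5p and miR-1839-3p. Of these 9, 8 were among the 406 rat miRNAs listed, 6 had at least 1 read and 5 reached 5 reads in 1 library or both, as did 81 miRNAs in all, which are called kept below. miR-664-1-5p was not analysed here. The members were selected on the origin of their precursors with the read counts and fold changes of these same libraries known, so the values below describe the members and test nothing.

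Most animal miRNAs are cut out of long primary transcripts by the nuclear enzyme Drosha with its partner DGCR8, and a smaller number reach Dicer by other routes. Mirtrons are short introns that are spliced out and debranched into a hairpin, so that the splice sites stand in for the Drosha cut. Some small nucleolar RNAs (snoRNAs), which otherwise guide the chemical modification of other RNAs, are trimmed into miRNA-sized pieces. The precursor of miR-320 begins at its own transcription start, carries a 5′ cap and leaves the nucleus without a Drosha cut, and miR-484 has been described as made in the same way.

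INS-1 832/13 cells, which come from a rat insulinoma and stand in for pancreatic beta cells, were kept with native HDL from human plasma (nHDL) at 1 mg/mL for 24 h at 3 mM glucose, and the nHDL was recovered from the medium by immunoprecipitation of its main protein, apoA-I (INS-1-nHDL). In the control, the same kind of nHDL was kept in medium without cells (cf-nHDL). Each condition was sequenced as 1 library from a pool of 3 samples, so no difference has a replicate check and no test of the conditions was possible. The cf-nHDL library held 6585 miRNA reads and the INS-1-nHDL library 18008. miR-375-3p, which is highly expressed in beta cells, took 62.3% of the INS-1-nHDL reads and 3.51% of the cf-nHDL reads, and every other share in that library stands against this one. Fold changes are therefore ratios of counts divided by DESeq2 size factors, whose ratio of INS-1-nHDL to cf-nHDL was 1.98, so that equal levels would give INS-1-nHDL 1.98 times the reads. Since all values are relative to the other miRNAs of the same library, more copies of one miRNA and fewer copies of the rest cannot be told apart.

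The mature sequences of the 4 members with reads from introns or snoRNAs are given first, since these members had no reads on the control nHDL. They come from RefSeq (GRCr8), which held 8 of the 9 names, and the 7 of these that were listed in the counts had the same letters there. Capitals mark the seed, bases 2 to 8, through which a miRNA pairs with its targets.
miR-1224: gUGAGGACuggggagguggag
miR-877: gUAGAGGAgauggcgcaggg
miR-664-2-5p: cUGGCUGGggaaaaugauugg
miR-1839-5p: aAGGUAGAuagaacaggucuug
The seeds differ from each other, and 0 other miRNAs of the 406 share one of them or the seed of miR-484, miR-664-3p or miR-1839-3p, so these members share no seed with each other or with any other listed miRNA.

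A mirtron hairpin spans a whole intron, and the RefSeq hairpins of both mirtrons are printed to show their ends. Capitals mark the first and last 2 bases, GU and AG, which are the usual letters of the 5′ and 3′ splice sites.
Mir1224 hairpin: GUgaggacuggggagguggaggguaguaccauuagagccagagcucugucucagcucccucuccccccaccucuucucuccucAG
Mir877 hairpin: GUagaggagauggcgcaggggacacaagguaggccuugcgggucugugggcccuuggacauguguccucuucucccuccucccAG
Both are 85 bases long and the mature miRNA starts at base 1 of each. Of the 419 rat hairpins taken from RefSeq, 4 start with GU and end with AG on the strand of the hairpin, which is 0.955%. The other 2 are Mir3595 and Mir678.

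The third hairpin, Mir664-2, is shown because both of its arms are listed. Capitals mark the 5′ arm, miR-664-2-5p, and the 3′ arm, miR-664-3p.
Mir664-2 hairpin: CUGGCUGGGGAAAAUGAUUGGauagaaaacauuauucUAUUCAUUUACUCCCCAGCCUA
The 3′ arm is the same in Mir664-1, so the authors' files place miR-664-3p at 2 loci. The 5′ arm of Mir664-1 differs from miR-664-2-5p by U15A, counted from 1 at the 5′ end with the base of miR-664-2-5p first. The alignment allowed 1 mismatch, so reads of either 5′ arm could have aligned to both places, and the value of miR-664-2-5p is uncertain in this respect. In the GRCr8 annotation, Mir664-1 is listed under the snoRNA symbol Snora36c and Mir1839 under Scarna15, a small Cajal body RNA. Mir664-2 carries no snoRNA symbol there, although its arm miR-664-2-5p gave 30 of the 42 snoRNA-derived reads on INS-1-nHDL.

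In the coordinates of the authors' files, on the rat genome build rno5, miR-1224 lies at chr11:87065014-87065034 on the minus strand and miR-877 at chr20:5416400-5416419 on the plus strand. Their genes overlap Vwa5b2 and Abcf1 in GRCr8, and Abcf1 encodes a protein that takes part in translation initiation. miR-664-2-5p lies at chr13:107866605-107866625 on the plus strand, and its gene overlaps Rab3gap2, which encodes a regulator of the GTPase Rab18. miR-1839-5p lies at chr1:144303952-144303973 on the plus strand, with no other gene over it and Fsd2 next to it. miR-320-3p lies at chr15:55857840-55857861 on the plus strand beside Polr3d, a subunit gene of RNA polymerase III, and miR-484 at chr10:27855-27876 on the minus strand between Nde1 and Marf1. Neither capped miRNA overlaps another gene in GRCr8, while both mirtrons and miR-664-2-5p lie within protein-coding genes.

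On cf-nHDL, miR-320-3p was the one member with reads, and on INS-1-nHDL it was joined by members of the other classes. miR-320-3p had 280 reads without cells (cf-nHDL) and 122 with them (INS-1-nHDL). miR-1224 had 0 and 43 reads, and miR-664-2-5p had 0 and 30. The capped miRNA was thus lower with cells even in raw reads, although INS-1-nHDL had more miRNA reads in total. miR-1839-5p had 0 and 12 reads, and miR-877 had 0 and 9. miR-484 had 0 and 1 read, too few for a fold change, and miR-664-3p and miR-1839-3p had 0 reads in both libraries. A count of 0 allows a share of up to 0.0456% of the miRNA reads of the cf-nHDL library, and up to 0.0167% in the INS-1-nHDL library (3 reads of the total). No molecular identifiers are named for these libraries, so PCR copies of one molecule count as several reads, and these limits and all intervals below cover counting error only. The nHDL was human, but the reads were aligned to the rat genome with 1 mismatch allowed. Human forms that differ by more could be missed, so a 0 on cf-nHDL need not mean absence. Whether this occurred was not tested. The deposited counts of all 8 listed members were whole numbers.

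**Figure D1:**
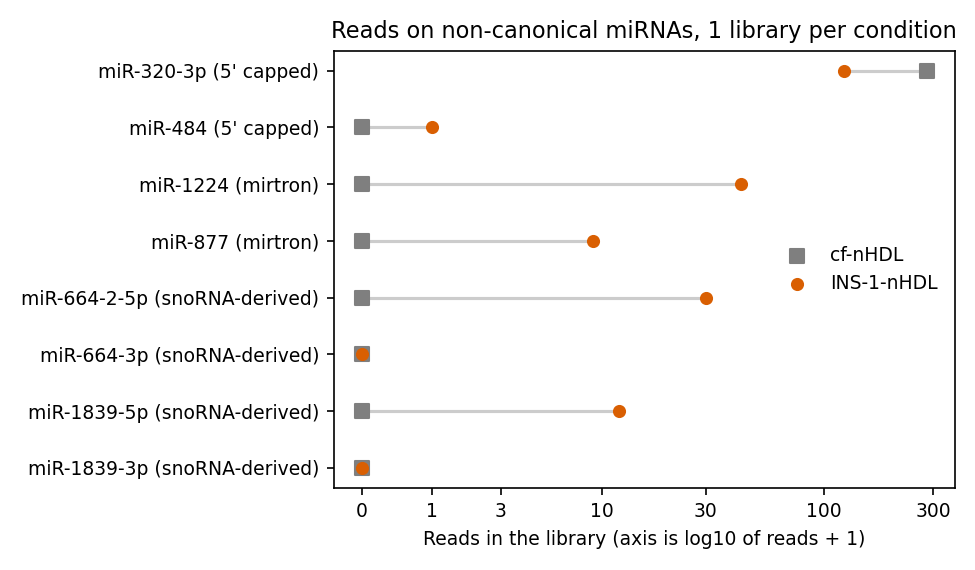
Reads of the 8 listed members (rows, with their class) on cf-nHDL (grey squares) and INS-1-nHDL (orange circles), 1 library each, on an axis of log10 of reads + 1. miR-320-3p lies lower on INS-1-nHDL (122 against 280 reads), while the other members with reads lie at 0 on cf-nHDL and between 1 and 43 on INS-1-nHDL.

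miR-320-3p, which is known to repress the glycolytic enzyme phosphofructokinase, was rank 5 among all miRNAs on cf-nHDL and rank 13 on INS-1-nHDL. Its share of miRNA reads was 4.25% (Wilson 95% interval 3.79 to 4.77%) on cf-nHDL and 0.677% (0.568 to 0.808%) on INS-1-nHDL. Without the reads of miR-375-3p in both totals, the shares were 4.41% and 1.80%. The fold change was 0.220 (exact Clopper-Pearson 95% interval 0.176 to 0.273), and it was 0.159 when scaled by total miRNA reads and 0.408 when the total left out miR-375-3p. The intervals under each of these 3 scalings lay below 1. Of the 43 kept miRNAs with more than 3 reads in both libraries, miR-320-3p was rank 9 from the lowest fold change.

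Fewer reads with cells were also seen for other miRNAs that were abundant on cf-nHDL. Of the 10 miRNAs with the most reads on cf-nHDL, miR-320-3p included, 6 had fewer reads on INS-1-nHDL, and the same was seen for 29 of the 81 kept miRNAs. The miRNAs with the nearest fold changes, over these 2 libraries and among 37 candidates with at least 20 reads, were miR-23a-3p and miR-205. miR-23a-3p had 28 and 12 reads and a fold change of 0.216 (0.100 to 0.439). miR-205 had 24 and 9 reads and a fold change of 0.189 (0.0773 to 0.421). Both intervals hold the value of miR-320-3p, so the order of the 3 is not resolved at this depth.

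miR-1224, the mirtron with more reads, was rank 25 on INS-1-nHDL with a share of 0.239% (0.177 to 0.321%). With 3 reads taken for cf-nHDL it was 7.22-fold higher on INS-1-nHDL, a bound that ignores counting error in the INS-1-nHDL reads. Its exact interval, which allows for counting error in both libraries, started lower, at 5.63. At a fold change of 1, its 43 reads would correspond to 21.7 reads on cf-nHDL, where 0 were counted. For miR-877 the same calculation gave 4.54 reads, and a bound of 1.51-fold with an interval from 0.995. That interval holds 1, as did the one under total miRNA reads (from 0.722), while under TMM it started at 1.03 and with miR-375-3p left out of the totals at 1.85, so whether miR-877 differed turned on the scaling. Summed, the mirtrons had 0 and 52 reads, of which miR-1224 gave 43 on INS-1-nHDL. Against 3 reads their bound was 8.74-fold, with an interval from 6.86.

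miR-664-2-5p was rank 30 on INS-1-nHDL with a share of 0.167% (0.117 to 0.238%). It was 5.04-fold higher against 3 reads, with an exact interval from 3.85. miR-1839-5p was rank 52 and 2.02-fold higher against 3 reads, with an interval from 1.40. The interval of miR-1839-5p lay above 1 and not above 1.5. The snoRNA-derived arms together had 0 and 42 reads, which gave a bound of 7.06-fold against 3 reads and an interval from 5.49.

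Within the snoRNA-derived precursors, reads were on the 5′ arms. miR-664-2-5p and miR-1839-5p had 30 and 12 reads on INS-1-nHDL, and their 3′ arms had 0. The mature miR-1224 and miR-877 come from the 5′ end of their hairpins, and no other arm of the mirtrons was analysed here, so their reads say nothing about arms. An arm at 0 was usual: of 37 other precursors with both arms listed and at least 5 reads on the leading arm on INS-1-nHDL, 33 had 0 reads on the other arm, and the 5′ arm led in 19. Of the 17 of these whose leading arm had 10 to 50 reads, which takes in the 12 and 30 reads of the members, 13 had 0 reads on the other arm, and the 5′ arm led in 6.

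**Figure D2:**
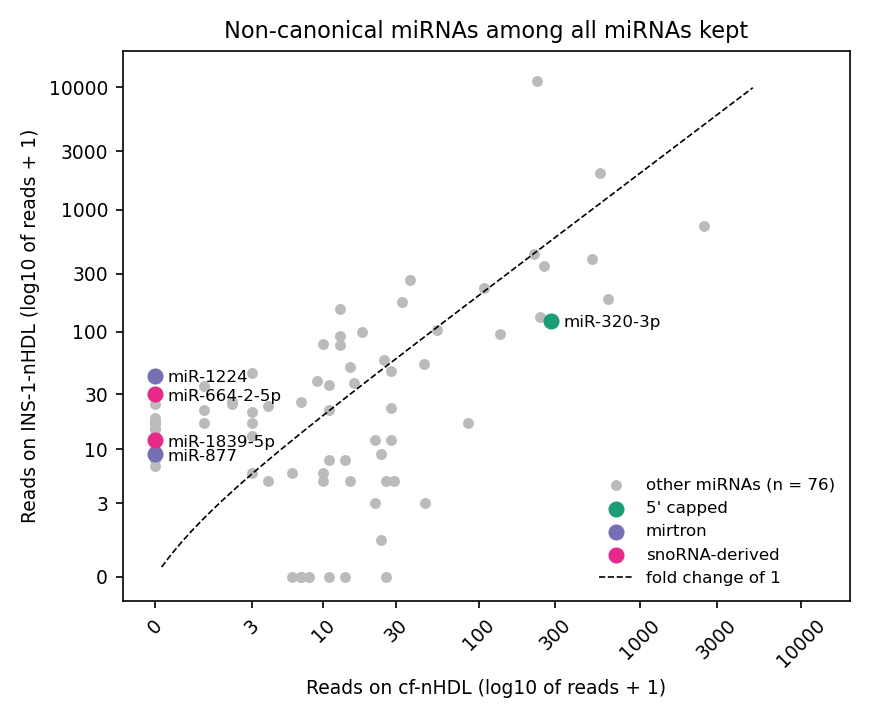
Reads on cf-nHDL (x axis) and INS-1-nHDL (y axis), both as log10 of reads + 1, for the 81 miRNAs kept, with the 5 kept members coloured by class and the dashed line at a fold change of 1 (1.98 times the reads on INS-1-nHDL). miR-320-3p lies below the line at 280 and 122 reads, and miR-1224, miR-664-2-5p, miR-1839-5p and miR-877 lie on the left edge at 0 reads on cf-nHDL.

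By precursor class, the composition of the non-canonical reads differed between the libraries. On cf-nHDL, 280 reads fell on members and 100% of them on the capped class. On INS-1-nHDL, 217 reads fell on members, of which 56.7% were on the capped class, with 52 reads on mirtrons and 42 on snoRNA-derived arms. As a share of all miRNA reads, the capped class went from 4.25% to 0.683% (0.573 to 0.814%), mirtrons from 0 to 0.289% (0.220 to 0.378%) and snoRNA-derived arms from 0 to 0.233% (0.173 to 0.315%). With miR-375-3p left out of the totals, the capped class went from 4.41% to 1.81%, and the INS-1-nHDL shares were 0.766% for mirtrons and 0.619% for snoRNA-derived arms. The fold change of the capped class was 0.221 (0.178 to 0.275), or 0.411 when scaled by those totals, and 122 of its 123 INS-1-nHDL reads were those of miR-320-3p. The mirtron and snoRNA-derived members summed to 94 reads on INS-1-nHDL, for which a fold change of 1 would correspond to 47.4 reads on cf-nHDL, where 0 were counted.

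**Figure D3:**
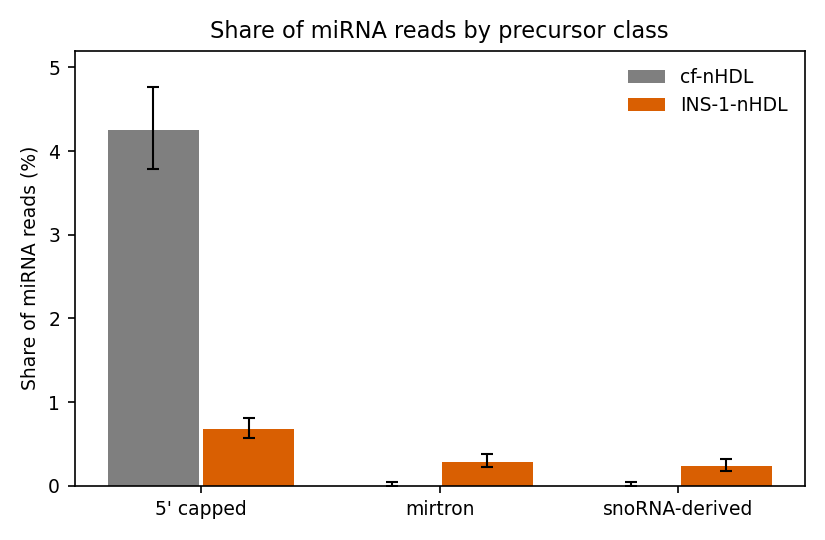
Share of all miRNA reads (percent, y axis) held by each precursor class on cf-nHDL (grey) and INS-1-nHDL (orange), 1 library each, with Wilson 95% intervals, or for 0 reads the limit of 3 reads, which cover counting error only. The capped class held 4.25% and 0.683%, and the mirtron and snoRNA-derived classes held 0% on cf-nHDL, against 0.289% and 0.233% on INS-1-nHDL.

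Of the 5 kept members, 4 had a fold change or bound above 1.5 on INS-1-nHDL, beside 46.9% of all 81 kept miRNAs, and 1 had a fold change below 1/1.5, beside 39.5%. The whole interval lay above 1.5 for 2 members, miR-1224 and miR-664-2-5p, beside 30.9% of the kept miRNAs, and below 1/1.5 for miR-320-3p, beside 29.6%. No reads on cf-nHDL were found for 4 of the 5, beside 21% of the kept miRNAs, and 0 of the 5 were without reads on INS-1-nHDL, beside 9.88%. The median fold change or bound was 2.02 over the 5 members and 1.17 over all 81. The members were kept through INS-1-nHDL in 4 of 5 cases, and a miRNA at 0 on cf-nHDL can be kept in no other way, so nothing is read from these counts. Among the 17 kept miRNAs with 0 reads on cf-nHDL, miR-1224 and miR-664-2-5p had the most and the second most reads on INS-1-nHDL, miR-1839-5p was rank 12 and miR-877 rank 14. The 13 others had 7 to 25 reads on INS-1-nHDL.

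Scaling by total miRNA reads, which counts miR-375-3p in full, lowered the bounds of the 4 members at 0 on cf-nHDL. The bound was then 5.24 for miR-1224 and 3.66 for miR-664-2-5p, while miR-1839-5p was at 1.46 and miR-877 at 1.10. Thus 2 of the 5 kept members passed 1.5-fold, beside 37% of the 81 kept miRNAs under this scaling. Without miR-375-3p in the totals, the bounds were 13.4 for miR-1224, 9.36 for miR-664-2-5p, 3.74 for miR-1839-5p and 2.81 for miR-877. miR-1224, miR-664-2-5p and miR-1839-5p had intervals above 1 under all 3 of these scalings, and of the 3 scalings the last alone gave miR-877 one.

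**Figure D4:**
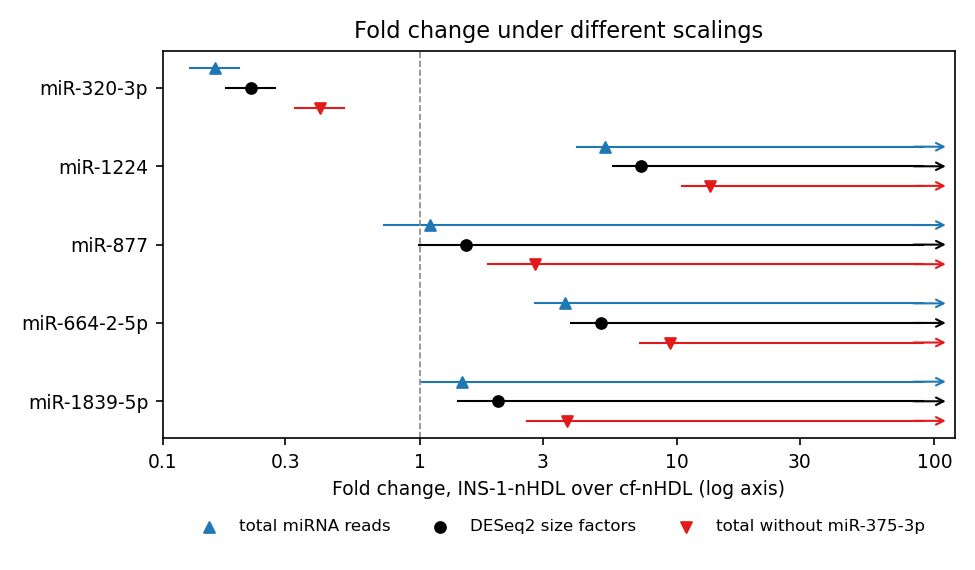
Fold change (INS-1-nHDL against cf-nHDL, x axis, log scale) for the 5 kept members under scaling by total miRNA reads (blue), DESeq2 size factors (black) and total miRNA reads without miR-375-3p (red); lines are exact 95% intervals, arrows mark intervals with no upper end, and the points of the 4 lower members are bounds against 3 reads. miR-320-3p stays left of the dashed line at 1 (0.159 to 0.408), and miR-1224 (5.24 to 13.4) and miR-664-2-5p (3.66 to 9.36) stay right of it.

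Other miRNAs of non-canonical origin were looked up from a list of 11 names. Of these, the arms of miR-451 had counts to look up. miR-451 is made by Ago2 without Dicer and is abundant in red blood cells. miR-451-5p had 26 reads without cells and 5 with them, and miR-451-3p had 0 in both. The fold change of miR-451-5p was 0.0969 (0.0291 to 0.256). It therefore differed between the libraries in the same direction as miR-320-3p.

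Lists of miRNAs named for blood cells and for beta cells also differed between the libraries. Of 8 names of blood cell miRNAs, 5 were kept, and all 5 had a fold change or bound below 1/1.5, beside 39.5% of the 81 kept miRNAs. Of the cf-nHDL reads of this list, 2486 were those of miR-16-5p. The blood cell list went from 2544 to 756 reads in sum, and from 38.6% to 4.20% of miRNA reads, or from 40.0% to 11.1% with miR-375-3p left out of the totals, with miR-142-3p and miR-144-3p at 0 in both libraries. Of 5 names of beta cell miRNAs, 3 were kept and 2 of them, miR-375-3p and miR-182, were above 1.5-fold, beside 46.9% of the kept miRNAs, while miR-96-5p was at 0 in both libraries. Without miR-375-3p, the beta cell list had 13 reads without cells and 159 with them, of which miR-182 gave 13 and 152. The third kept name, miR-183-5p, had 0 and 7 reads, and its interval, from 0.726, held 1. The part of either list in the values of the non-canonical miRNAs was not tested, nor was it tested whether their reads came from the rat cells or the human nHDL.

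The kept members also differed in base composition. The GC content of miR-1224 was 66.7% and that of miR-877 was 65%, which are ranks 2 and 5 from the highest among the 81 kept miRNAs, whose median was 47.6%. miR-320-3p was at 54.5%, miR-664-2-5p at 52.4% and miR-1839-5p at 40.9%, so the members at 0 on cf-nHDL lay on both sides of the median. The members were 20 to 22 bases long, and the kept miRNAs 20 to 25. The part of base composition in the counts was not tested.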

How the data were processed

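sRNA-seq was performed on 2 libraries, one per condition. The authors removed adapters with Cutadapt, aligned reads longer than 16 nt to the rat genome (rno5) with Bowtie 1.1.2 and 1 mismatch allowed, and deposited expected counts per mature miRNA without normalization. The counts of 11 miRNAs had decimals, so some reads may have been divided between near-identical miRNAs, which was not tested. The labels name a TruSeq RNA kit and the methods a TruSeq small RNA kit. The authors also deposited their DESeq2 comparison (base mean, log2 fold change, standard error and p-values), which was not used.

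Counts were rounded to whole reads, which changed 11 miRNAs and no member. The 81 miRNAs with at least 5 reads in 1 library were kept. Libraries were scaled by the median of ratios (DESeq2 1.42.0, R 4.3.3) over the 56 miRNAs with reads in both libraries. Fold changes divide the normalized counts of INS-1-nHDL by those of cf-nHDL, and their Clopper-Pearson exact 95% intervals (scipy 1.17.1) condition on the sum of reads in both libraries. Against a library with 3 reads or fewer the comparison was with 3 reads and gives a bound that ignores counting error in the library with reads. None is given where both had 3 reads or fewer. Shares have Wilson intervals, and a share of 0 the limit of 3 reads. With 1 library per condition no p-value was computed. Alternatives were edgeR 4.0.16 TMM, total miRNA reads with and without miR-375-3p, other filters and a pseudocount of 1. The interval computation was tested on simulated data.

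The members and lists were chosen with earlier results of these data known. Named miRNAs are all members, a list of other non-canonical miRNAs, marker lists, and for each member with more than 3 reads in both libraries the 2 others with the nearest log2 fold change. miR-375-3p is named where scaling turns on it, and the remaining names were chosen after their values were seen. Coordinates are those of the authors' files, and GRCr8 was used for sequences and names of neighbouring genes only.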

Additional observations from a re-analysis of the deposited data

How the results depend on the processing

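No paired analysis was possible because there was 1 library per condition, and for the same reason no library could be left out. Of 68 values under alternatives, 55 stayed within the interval or within 1.5 times the count, 13 moved and 0 reversed. Under total miRNA reads, the fold change of miR-320-3p was 0.159, that of the capped class 0.161, and the bounds were 5.24 for miR-1224, 3.66 for miR-664-2-5p, 6.34 for the mirtrons and 5.12 for the snoRNA-derived class. That scaling put 2 members above 1.5-fold in place of 4. With the total taken without miR-375-3p, miR-320-3p was at 0.408 and the capped class at 0.411. The bounds were then 16.2 for the mirtrons and 13.1 for the snoRNA-derived class. These shifts follow from the scaling itself, which moves every log2 fold change by -0.46 and 0.89. The number of members above 1.5-fold was also 2 when the whole interval had to pass it. With miR-375-3p left out of the total, the shares on INS-1-nHDL were 1.81% for the capped class, 0.766% for mirtrons and 0.619% for snoRNA-derived arms.

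Because intervals against 0 reads have no upper end, a larger value always stays within them. Adding a pseudocount of 1 in place of the bound gave 31.5 for miR-1224, 22.3 for miR-664-2-5p, 9.52 for miR-1839-5p and 7.39 for miR-877. The interval of miR-877 held 1 under the size factors and total miRNA reads, and started at 1.03 under TMM, 1.12 under size factors from every miRNA with at least 1 read and 1.85 with miR-375-3p left out of the total. Summing miR-664-1-5p with miR-664-2-5p was not run, since miR-664-1-5p was not analysed here. Variation between libraries cannot be seen with 1 library per condition.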
